A study of Homo sapiens with 9 samples.

Results

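The genes described here are 10 ETS transcription factors, *ETV1*, *ETV4*, *ETV5*, *ERG*, *FLI1*, *ETS1*, *ETS2*, *ELF3*, *EHF* and *ELK1*. They were chosen by symbol from a table of 19984 protein-coding genes measured by RNA-seq in LNCaP, a prostate cancer cell line with androgen-responsive luminal features. All 10 were in the table, for each of 9 libraries. The libraries came from 3 LNCaP clones, with 3 cultures each. In the clones del-4 and del-56, CRISPR-Cas9 removed the promoter and exons 1 and 2 of *EPCART*, a long noncoding RNA gene. WT is a clone from the same procedure that kept *EPCART*, and it was the only reference for both deletion clones. All cultures were grown for 48 h in RPMI medium with serum, without any further treatment. The 3 cultures of a clone are its replicates, and a difference between a deletion clone and WT cannot be told apart from a difference between single clones. *EPCART* itself is not a protein-coding gene and was not analysed here.

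ETS factors share a winged helix-turn-helix domain that binds DNA around a GGAA core, and they act at the end of the RAS and MAPK pathway, in blood vessel and blood development and in epithelial differentiation. In prostate cancer, chromosome rearrangements place *ERG*, *ETV1*, *ETV4*, *ETV5* or *FLI1* under the control of other promoters. LNCaP is a known case for *ETV1*, because in this line the whole gene is inserted into an intron of *MIPOL1* on chromosome 14, which was not checked here. *ETV1*, *ETV4* and *ETV5* form the PEA3 group, whose genes are repressed by *CIC* and whose proteins are marked for degradation by the *COP1* ubiquitin ligase. *EHF* and *ELF3* belong to the epithelial ETS factors, and *ELK1* is a ternary complex factor that binds DNA together with *SRF*.

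The 250 bases before an annotated start of *ETV1* and of *EHF*, the member with the highest levels, show the DNA next to both genes. They are from RefSeq on GRCh38.p14 and are read 5′ to 3′ on the strand of the gene. Capitals mark each GGAA core or its reverse complement TTCC. The *ETV1* window lies at chr7:13991426-13991675 on the minus strand and overlaps no annotated gene, and the *EHF* window lies at chr11:34624007-34624256 on the plus strand, inside *EHF* but in none of its exons.
ETV1: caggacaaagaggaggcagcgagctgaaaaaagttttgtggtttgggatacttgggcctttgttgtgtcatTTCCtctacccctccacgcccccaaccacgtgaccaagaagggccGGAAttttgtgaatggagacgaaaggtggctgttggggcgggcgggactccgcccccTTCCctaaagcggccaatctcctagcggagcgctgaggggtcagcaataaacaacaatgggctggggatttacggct
EHF: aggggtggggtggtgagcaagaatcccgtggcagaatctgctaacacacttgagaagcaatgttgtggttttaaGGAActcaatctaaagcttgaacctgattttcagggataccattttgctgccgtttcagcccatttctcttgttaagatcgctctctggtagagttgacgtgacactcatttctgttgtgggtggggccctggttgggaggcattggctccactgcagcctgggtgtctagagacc

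The motif CCGGAA, an ETS site that holds the GGAA core, occurred once in the *ETV1* window and not in the *EHF* window. Both strands were searched, and 14.5% of 34943 RefSeq windows of this length held it. The *ETV1* window also held 1 copy of TGAATGGA, an octamer bound by *CIC*, which was present in 0.818% of all windows. RefSeq has 6 such windows for *ETV1*, of which 3 held CCGGAA and the printed one alone held TGAATGGA, and 2 for *EHF*, which held neither. The second *CIC* octamer, TGAATGAA, was in neither window and in 1.40% of all windows. The GGAA core alone was in 92.7% of all windows, so that the 3 cores before *ETV1* and the 1 before *EHF* are shown as positions only. RefSeq windows were at hand for 6 members in all, *ETV1*, *EHF*, *ERG*, *ETS2*, *ELF3* and *ELK1*, and those of *ETV4*, *ETV5*, *FLI1* and *ETS1* were not used here.

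The totals of the libraries were close but did not overlap between the clones. The sum of normalized counts was 111552105 to 114166805 in del-4, 109407278 to 110436171 in del-56 and 106316726 to 109060950 in WT. Small differences between clones therefore depend on the scaling, and results with the same total per library are given below. The 6 libraries for which whole reads were recovered held 91074556 to 118877134 reads on genes, the lowest in del-56 replicate 3. All 10 luminal prostate markers were expressed in every library, with summed normalized counts from 377293 to 406174. Of the markers listed for other cell types, a mean under 10 was found for 3 of 7 of basal cells, 5 of 8 of endothelium, 6 of 8 of blood, 3 of 8 of stroma and 4 of 6 of neuroendocrine cells. *CDH5* of endothelium, *CD3E* of T cells and *HBB* of red cells were at 0 in all 9 libraries, while other genes of the same lists were not, as *VWF* with means of 304, 641 and 596 and *COL1A1* with 1253, 1258 and 991 in del-4, del-56 and WT. The summed level per library was 2065 to 2569 for the basal list, 829 to 1219 for endothelium, 517 to 622 for blood, 1572 to 2236 for stroma and 134 to 271 for neuroendocrine cells, and their part in the results was not tested. A gene contained in a larger gene passed its counts on to the host. Among pairs in which the inner gene had a mean of at least 1000, the host had at least as many counts in 135 of 141 pairs on the same strand and in 211 of 213 pairs on opposite strands. The values therefore behaved as reads over the whole span of a gene, introns and both strands included, and the larger overlaps of a member are given with it. As these are bulk cultures, fewer cells that express a gene and less RNA per cell cannot be told apart.

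*ETV1* was among the higher ETS genes per kb of exon in every clone and was slightly higher in del-4. The gene lies at chr7:13891229-13991425 on the minus strand. The libraries held normalized counts of 18021, 17856 and 17545 in del-4 cultures, 16048, 16754 and 16351 in del-56 cultures, and 15841, 16064 and 15932 in WT cultures. Each del-4 library was above all 6 others, and the del-56 and WT libraries overlapped. Del-4 averaged 17807 ± 242 (SD, n = 3), del-56 averaged 16384 ± 354 (SD, n = 3) and WT averaged 15946 ± 112 (SD, n = 3). Against WT, the log2 fold change was 0.16 in del-4 (SE 0.033, adjusted p = 0.000763, limma), a rise of 11.7%. In del-56 it was 0.039 (SE 0.035, adjusted p = 0.419, limma), with a 95% interval from -0.036 to 0.114. The direct difference of the clones was 0.12 in favour of del-4 (SE 0.035, adjusted p = 0.0221, limma). This direct call was lost in 5 of 14 alternative analyses, with an adjusted p of 0.0862 without del-4 replicate 1, 0.0582 without del-4 replicate 3, 0.0763 without del-56 replicate 3, 0.123 with libraries scaled to the same total and 0.0772 with quantile normalization.

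Of the 10 factors, a larger share was called in del-4 than in del-56, and most of the changes were small; the difference of these shares was not tested. In del-4 against WT, 9 members passed the filter on low values and 6 of them had an adjusted p under 0.05 (limma), 4 higher and 2 lower, where 40.7% of all genes tested were called, 20.5% higher and 20.2% lower. In del-56 against WT, 2 of 10 were called, 1 higher and 1 lower, where 39.7% of all genes were called, 19.2% higher and 20.5% lower. In del-4 against del-56, 2 of 10 were called, *ETV1* higher and *EHF* lower in del-4, with a background of 19.9% of all genes, 10.9% higher and 9% lower. The median log2 fold change of the members was -0.20, 0.043 and -0.033 in these comparisons, and over all genes it was -0.0028, -0.0011 and -0.0026. In del-4 against WT this median was the value of *EHF*. Below it lay *ETS1* and the uncalled *ETV4*, *ETV5* and *ERG*, all at low levels, and above it the 4 members called higher. A log2 fold change past 1 in size with a call was reached only by *ETS1* in del-56, while 4.83% and 4.87% of all genes reached it in del-4 and del-56 against WT. Both comparisons use the same WT libraries. Scaled to the same total per library, 3 members were called in del-4, *ETV1*, *EHF* and *ETS1*, and the split of all calls in del-4 against WT went from 3565 higher and 3517 lower to 2364 higher and 4932 lower. Without WT replicate 3, 2 members were called in del-4, *ETV1* and *EHF*. Between del-4 and del-56, no member was called without del-4 replicate 1, del-4 replicate 3 or del-56 replicate 3.

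**Figure D1:**
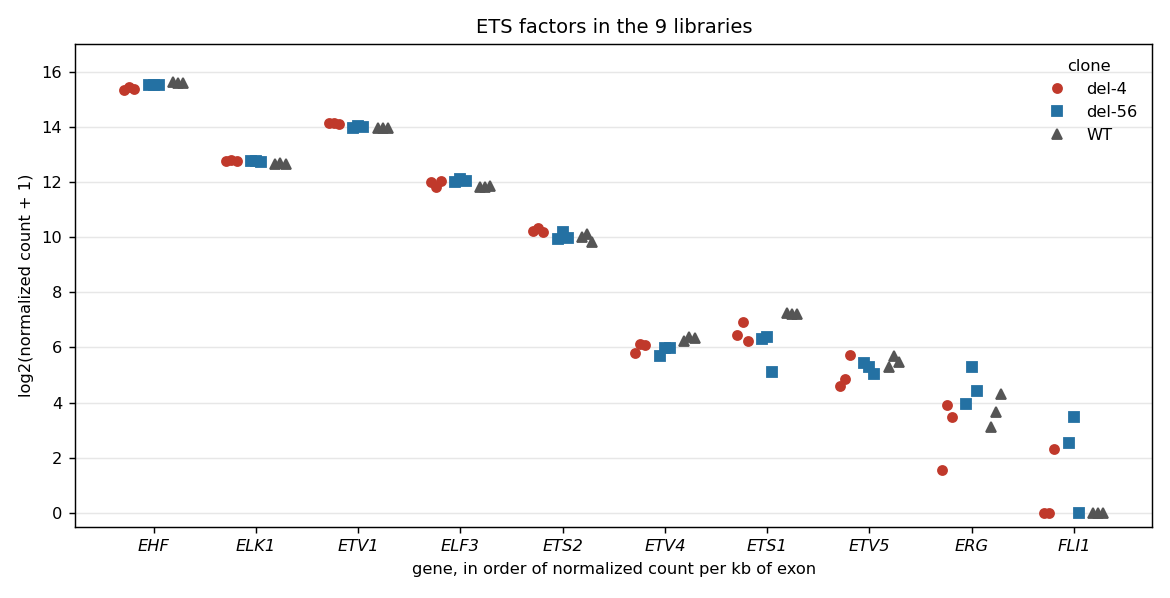
Log2 of the normalized count plus 1 of each ETS factor in every library, with 3 points per clone for del-4 (circles), del-56 (squares) and WT (triangles). *EHF*, *ELK1*, *ETV1*, *ELF3* and *ETS2* stood above 900 normalized counts in all 9 libraries, and the other 5 factors stood below 160.

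**Figure D2:**
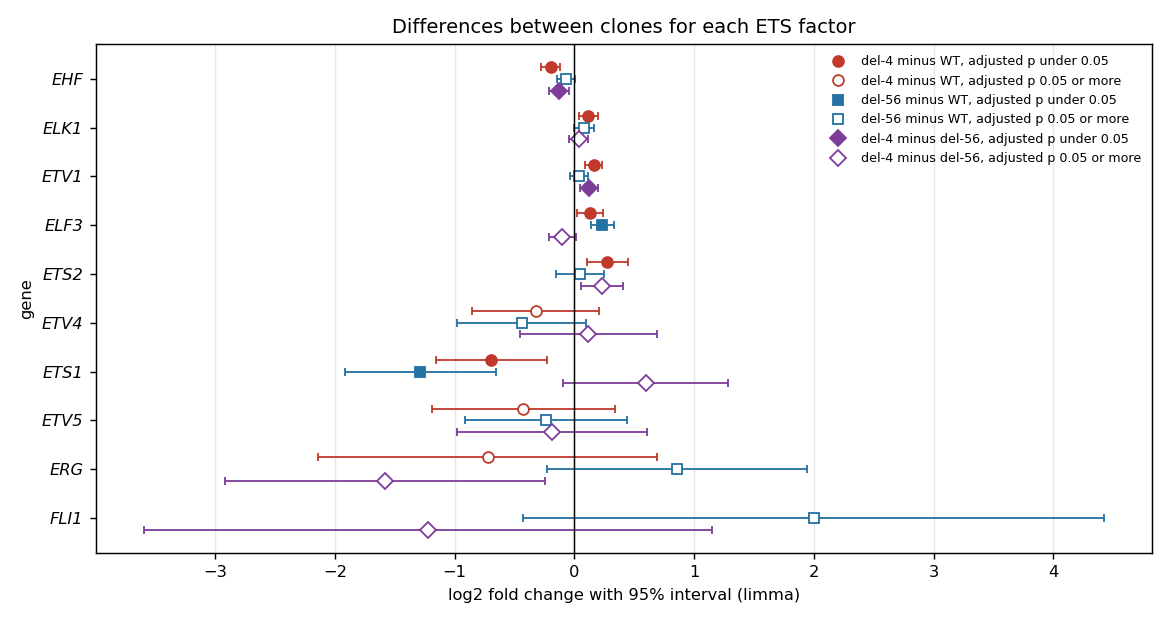
Log2 fold change (x axis) of each ETS factor in the 3 comparisons, with 95% intervals from limma and filled symbols for an adjusted p under 0.05. The intervals were narrow for the 5 factors with high counts and widened to the bottom, where *FLI1* was not tested in del-4 against WT.

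The other PEA3 genes had few counts beside *ETV1*. *ETV4* (chr17:43527844-43579620, minus strand) had normalized counts of 54.7, 68.7 and 66.3 in del-4 cultures, 50.6, 62.2 and 61.8 in del-56 cultures, and 74.4, 83.0 and 80.1 in WT cultures. Every deletion library was below every WT library, without a call. Against WT, del-4 stood at -0.32 on the log2 scale (SE 0.25, adjusted p = 0.331, limma), while del-56 stood at -0.44 (SE 0.25, adjusted p = 0.188, limma). The span of *ETV4* lies inside that of *DHX8*, an RNA helicase gene on the opposite strand with a mean normalized count of 6707, and how many of the few *ETV4* counts are *DHX8* reads was not tested.

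*ETV5* (chr3:186046314-186110318, minus strand) had normalized counts of 23.0, 27.9 and 52.2 in del-4 cultures, 42.0, 38.2 and 31.5 in del-56 cultures, and 38.7, 50.2 and 43.4 in WT cultures. The groups overlapped. Del-4 minus WT came to -0.43 (SE 0.36, adjusted p = 0.381, limma) on the log2 scale, and del-56 minus WT to -0.24 (SE 0.32, adjusted p = 0.596, limma). Part of its span is shared with *DGKG* and with the antisense gene *ETV5-AS1*.

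*ERG* and *FLI1*, the ETS genes of endothelium and blood and the partners in the common fusions of prostate and Ewing tumors, had the fewest counts of the 10 factors. *ERG* (chr21:38380027-38661780, minus strand) had normalized counts of 1.92, 13.9 and 10.0 in del-4 cultures, 14.3, 38.2 and 20.6 in del-56 cultures, and 7.73, 11.6 and 18.9 in WT cultures. Each del-56 library was above each del-4 library, and WT overlapped with both. Set against WT, del-4 was at -0.73 on the log2 scale (adjusted p = 0.428, limma) and del-56 at 0.86 (adjusted p = 0.205, limma), with -1.58 between del-4 and del-56 (SE 0.63, adjusted p = 0.0907, limma). Single libraries moved these values, as leaving out 1 library at a time put del-4 against WT at -1.19 to -0.014, the last without del-4 replicate 1, and del-56 against WT was 0.49 without del-56 replicate 2. Endothelial markers summed to 829 to 985 for del-4, 1062 to 1219 for del-56 and 956 to 1124 for WT. The largest parts of this sum did not order the clones alike. *VWF* had means of 304, 641 and 596 in del-4, del-56 and WT, and *EMCN* had 546, 458 and 421. The part of these markers in the *ERG* values was not tested. These few counts are spread over a gene of 282 kb, which shares 39775 bases with the noncoding gene ENSG00000287470 on the opposite strand.

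*FLI1* (chr11:128686535-128813267, plus strand) was 0 in all 3 WT libraries. The del-4 cultures had normalized counts of 0, 0 and 4.02, and the del-56 cultures had 4.77, 10.0 and 0. No clone had *FLI1* in all its libraries, and del-4 and del-56 overlapped with WT at 0. For del-56 against WT, limma gave no call (adjusted p = 0.187), and without del-56 replicate 2 the gene was below the filter. Without del-56 replicate 3, the library at 0, the adjusted p was 0.0491 from 2 libraries against 3. The gene was below the filter in del-4 against WT and was not tested there. Its span holds the noncoding gene *SENCR* (4360 bases) on the opposite strand.

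*ETS1* was lower in both deletion clones, from a low level. *ETS1* (chr11:128458761-128587558, minus strand) is a founding member of the family that is activated by RAS signaling and acts in lymphocytes and vessels. Its span holds the antisense gene *ETS1-AS1* (4248 bases). Its normalized counts were 86.4, 120 and 74.3 in del-4 cultures, 78.2, 82.3 and 34.0 in del-56 cultures, and 153, 147 and 147 in WT cultures. All 6 deletion libraries were below the 3 WT libraries, and the deletion clones overlapped with each other. Means were 93.4 ± 23.4 (SD, n = 3) for del-4, 64.8 ± 26.8 (SD, n = 3) for del-56 and 149 ± 3.36 (SD, n = 3) for WT.

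For *ETS1*, del-4 minus WT was -0.69 on the log2 scale (SE 0.22, adjusted p = 0.0169, limma), while del-56 minus WT was -1.29 (SE 0.30, adjusted p = 0.00257, limma). In del-56 the call was kept in all 16 alternatives, at a log2 fold change between -1.51 and -0.88, and edgeR and DESeq2 on recovered reads of 5 libraries gave -1.38 (adjusted p = 0.00175) and -1.39 (adjusted p = 0.000387). Without del-56 replicate 3, which held the lowest *ETS1* count and the fewest reads, it was -0.88 (adjusted p = 0.00688). The del-4 call was lost when del-4 replicate 3 (adjusted p = 0.0799), WT replicate 1 (0.0506) or WT replicate 3 (0.0523) was left out, and in 1 fit of all 9 libraries (0.0723). The difference between del-4 and del-56 was not called (0.59, SE 0.33, adjusted p = 0.231, limma).

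*ETS2* (chr21:38805183-38824955, plus strand), the close relative of *ETS1* and likewise a target of ERK phosphorylation, had higher counts than *ETS1* and was called higher in del-4. It shares 12078 bases with the noncoding gene ENSG00000205622 on the opposite strand. The libraries held normalized counts of 1199, 1275 and 1173 in del-4 cultures, 967, 1165 and 989 in del-56 cultures, and 1019, 1100.3 and 903 in WT cultures. The del-4 libraries were above all others, and del-56 overlapped with WT. On the log2 scale, del-4 was at 0.27 against WT (SE 0.081, adjusted p = 0.0113, limma), with del-56 at 0.047 (SE 0.094, adjusted p = 0.737, limma), and 0.23 between the deletion clones (SE 0.083, adjusted p = 0.0635, limma). The call in del-4 was lost without del-4 replicate 2 (adjusted p = 0.0519), without WT replicate 3 (adjusted p = 0.0814) and with the same total per library (adjusted p = 0.056). Between the deletion clones, the adjusted p was 0.0194 without del-56 replicate 2.

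Of the epithelial factors, *EHF* was lower in del-4 and *ELF3* was higher in del-56. *EHF*, which is known for keeping epithelial identity in the prostate, lies at chr11:34621093-34663288 on the plus strand. Normalized counts were 41159.8, 45017 and 42749 in del-4 cultures, 47098, 46462 and 47296 in del-56 cultures, and 50463, 48785 and 48659.7 in WT cultures. The 3 clones did not overlap, with del-4 lowest and WT highest.

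The log2 fold change of *EHF* was -0.20 in del-4 (SE 0.039, adjusted p = 0.000446, limma), a level 12.9% lower than in WT, and the call was kept in all 14 alternatives. In del-56 it was -0.070 (SE 0.037, adjusted p = 0.146, limma), and it was called with the same total per library (adjusted p = 0.0262) and with quantile normalization (adjusted p = 0.00671). Between del-4 and del-56 it was -0.13 (SE 0.039, adjusted p = 0.0262, limma). That call was lost without del-4 replicate 1 (adjusted p = 0.149), without del-4 replicate 3 (0.108), without del-56 replicate 2 (0.06) and without del-56 replicate 3 (0.0999).

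*ELF3* (chr1:202007945-202017183, plus strand), an ETS factor of differentiating epithelia, had normalized counts of 4133, 3639 and 4170.5 in del-4 cultures, 4119, 4438 and 4232 in del-56 cultures, and 3599, 3587 and 3686 in WT cultures. All del-56 libraries were above WT, while del-4 replicate 2 lay within the range of WT. On the log2 scale, del-56 was higher than WT by 0.23 (SE 0.046, adjusted p = 0.000693, limma), a rise of 17.6%, and it was called in all 16 alternatives. In del-4 it was 0.13 (SE 0.052, adjusted p = 0.0499, limma), at the threshold, and 9 of 14 alternatives gave no call. Among them were the fits without del-4 replicate 1 (adjusted p = 0.18), del-4 replicate 3 (0.228), WT replicate 1 (0.107), WT replicate 2 (0.131) and WT replicate 3 (0.0976). The noncoding genes *ELF3-AS1* and ENSG00000249007 overlap the span of *ELF3*, and their reads cannot be told apart from those of *ELF3* in the table.

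*ELK1* (chrX:47635521-47650604, minus strand), which turns on immediate early genes after phosphorylation by ERK, had normalized counts of 6938, 7105 and 6914 in del-4 cultures, 6875, 6875 and 6697 in del-56 cultures, and 6366, 6553 and 6406 in WT cultures. All 6 deletion libraries were above WT. Against WT, del-4 stood at 0.12 on the log2 scale (SE 0.037, adjusted p = 0.0174, limma), while del-56 stood at 0.081 (SE 0.038, adjusted p = 0.108, limma), and it was 0.036 between the clones (adjusted p = 0.583, limma). The call in del-4 was lost without del-4 replicate 2 (adjusted p = 0.0534), without WT replicate 3 (0.0567) and with the same total per library (0.367).

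**Figure D3:**
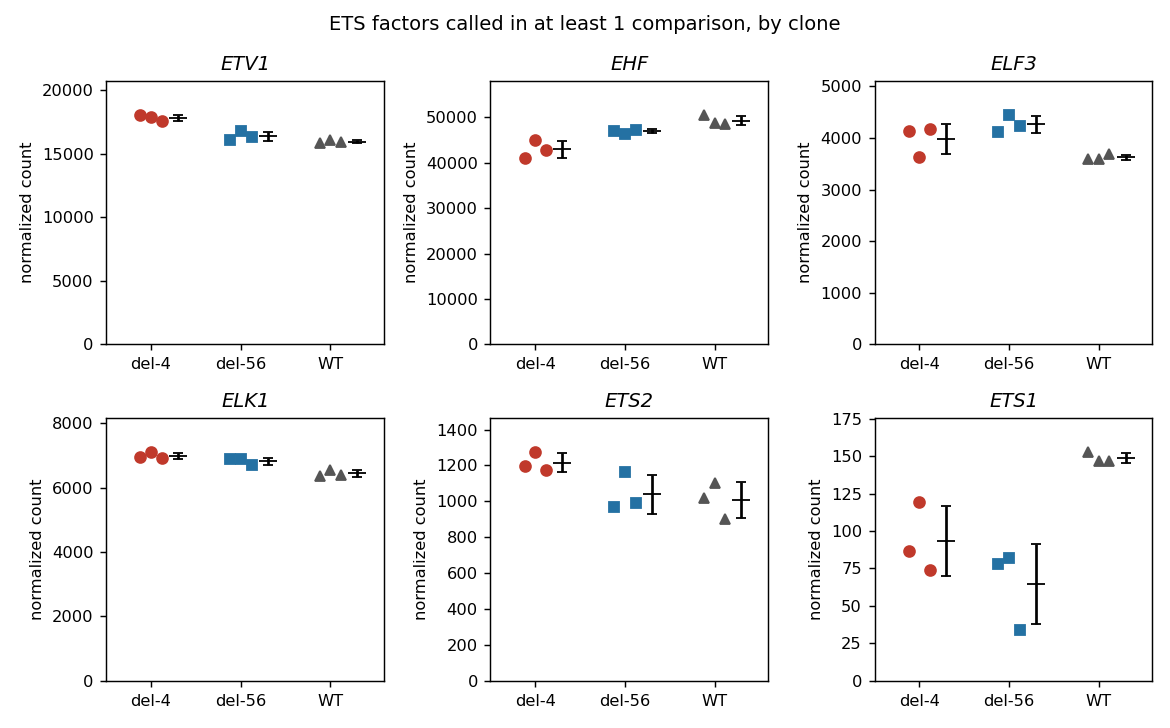
Normalized counts (y axis, from 0) of the 6 ETS factors called in at least 1 comparison, with 1 point per library and the mean ± SD of 3 cultures beside them in black. *ETV1* was highest in del-4, *EHF* was lowest in del-4, and *ETS1* was lower in both deletion clones than in WT.

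The levels of the factors were compared per kilobase of exon. *EHF* had 7014 normalized counts per kb of exon over the 9 libraries and stood above 96.3% of all genes with a known length. *ELK1* followed with 1986, *ETV1* with 1742, above 83.9% of genes, *ELF3* with 550.5 and *ETS2* with 219. The library ranges of *ELK1* and *ETV1* overlapped, and those of the other neighbours in this order did not. *ETV4* had 19.0, *ETS1* 14.3, *ETV5* 6.68, *ERG* 2.01 and *FLI1* 0.261 normalized counts per kb of exon, and each of these overlapped with its neighbour in the order. Because the counts behaved as reads over the whole span, the order was also taken per kilobase of gene span. It was then *EHF* with 1100 normalized counts per kb of span, *ELK1* with 447, *ELF3* with 428, *ETV1* with 167 and *ETS2* with 55.0, so that *ELF3* moved above *ETV1*.

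Among all 28 ETS genes of the table, *EHF* was first and *SPDEF* second per kb of exon. Per kb of gene span, *EHF* kept rank 1, *ERF* had rank 2 and *SPDEF* rank 3. *ETV1* had rank 4 per kb of exon and rank 9 per kb of span. *SPDEF* is a luminal ETS factor that works with the androgen receptor at the *KLK3* promoter. Its normalized counts were 9513, 10081 and 8999.8 in del-4 cultures, 9627, 9695 and 9394 in del-56 cultures, and 10814, 12142 and 10735 in WT cultures. Both deletion clones were below WT in all libraries. Del-4 minus WT came to -0.24 (SE 0.049, adjusted p = 0.000802, limma) on the log2 scale, and del-56 minus WT to -0.23 (SE 0.046, adjusted p = 0.000896, limma).

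*ERF*, an ETS repressor that leaves the nucleus when ERK is active, was higher in both deletion clones. On the log2 scale, del-4 was at 0.37 against WT (SE 0.043, adjusted p = 1.57e-06, limma), with del-56 at 0.24 (SE 0.044, adjusted p = 0.000432, limma), with 3589 to 3682 normalized counts in WT and 4166 to 4844 in the deletion clones. The whole span of *ERF* lies within the protein-coding gene ENSG00000268643 on the same strand, which had a mean of 7186 against 4208 for *ERF*, and how many counts they share was not tested. *GABPA*, the DNA-binding subunit of an ETS complex that serves housekeeping promoters, stood 0.15 above WT on the log2 scale in del-56 (adjusted p = 0.0186, limma), and del-4 was at 0.11 (adjusted p = 0.0654, limma). The *GABPA* call in del-56 was lost in 8 of 16 alternatives, among them the fits without WT replicate 2 (adjusted p = 0.117), WT replicate 3 (0.0659), del-56 replicate 2 (0.0698) and del-56 replicate 3 (0.0855). In del-4, *GABPA* was called without WT replicate 1 (0.0128). Of the 18 other ETS genes, 3 were higher and 2 lower in del-4, and 4 were higher and 3 lower in del-56, none past a log2 fold change of 1 against WT, at medians of -0.13 and -0.0065. These are 27.8% and 38.9% of the list, beside 40.7% and 39.7% of all genes.

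*ELF5* and *ELF1* lie outside the rule for naming genes and were added after their values were seen, because both differed between the clones. *ELF5*, an ETS factor of secretory epithelia, had normalized counts of 109, 108 and 110.5 in del-4 cultures, 242, 265 and 289.8 in del-56 cultures, and 143, 174 and 119 in WT cultures. The del-56 libraries were above all others, and the del-4 libraries were below WT. It was higher than WT by 0.88 on the log2 scale for del-56 (SE 0.18, adjusted p = 0.000978, limma), and for del-4 it was at -0.39 (SE 0.21, adjusted p = 0.144, limma). Between the clones it was at -1.27 (SE 0.17, adjusted p = 3.4e-05, limma), a call kept in all 14 alternatives and past a log2 fold change of 1, which 2.93% of all genes reached. *ELF1*, an ETS factor of many tissues, was below WT in all 6 deletion libraries, at -0.28 for del-4 (SE 0.057, adjusted p = 0.000566, limma) and -0.50 for del-56 (SE 0.060, adjusted p = 6.2e-06, limma). Between the clones it was at 0.22 (SE 0.059, adjusted p = 0.0136, limma), and this call was lost without del-4 replicate 3 (adjusted p = 0.0893).

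**Figure D4:**
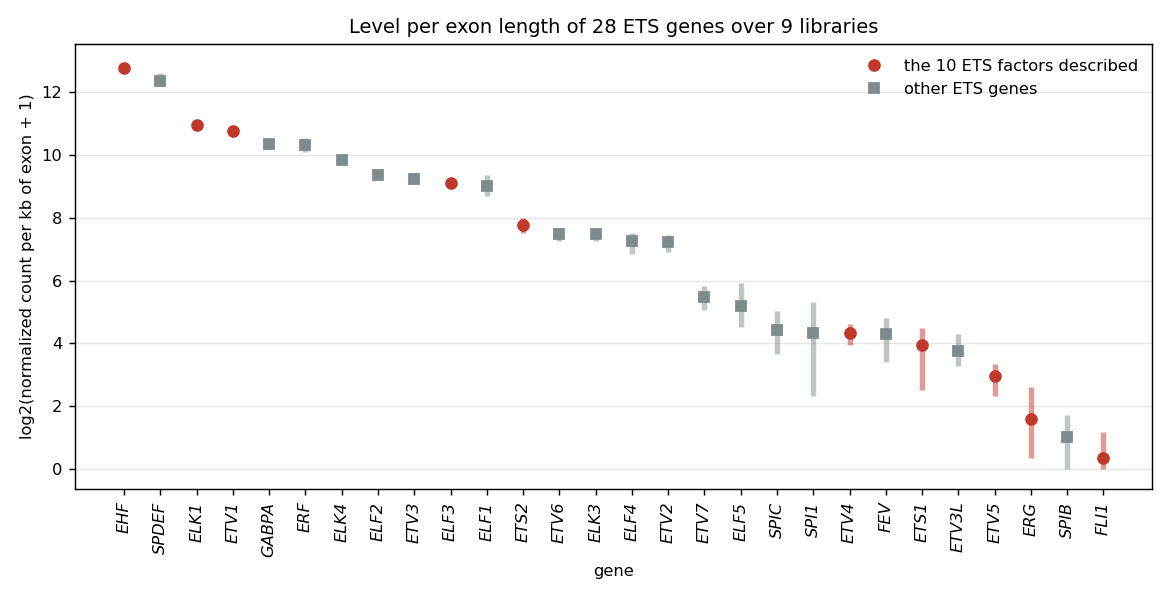
Log2 of the normalized count per kb of exon plus 1 for 28 ETS genes, as the mean over 9 libraries with a bar from the lowest to the highest library. The levels ran from 7014 normalized counts per kb for *EHF* to 0.261 for *FLI1*.

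The genes around *ETV1* were examined at its own place on chromosome 7 and at the place of its insertion on chromosome 14. *DGKB*, a diacylglycerol kinase and the only other gene of the table that starts within 1000000 bases of *ETV1*, had normalized counts of 1930.4, 1773 and 1746 in del-4 cultures, 1626, 1659 and 1793 in del-56 cultures, and 1809, 1816 and 1795 in WT cultures. It was not called in del-4 (0.0062, adjusted p = 0.95, limma) or in del-56 (-0.095, adjusted p = 0.239, limma). Among the genes tested on either side of *ETV1*, *TMEM106B*, a lysosomal membrane protein, was higher in both clones, by 0.29 on the log2 scale for del-4 and by 0.32 for del-56. In del-4, *THSD7A* was called higher and *SCIN* lower. *THSD7A*, at 21.3 to 131 normalized counts, was at 1.60 on the log2 scale for del-4 and 0.34 for del-56. The call of *SCIN* was lost without del-4 replicate 2 (adjusted p = 0.106), del-4 replicate 3 (0.0987), WT replicate 1 (0.116) and WT replicate 3 (0.06). *AGMO* and *VWDE*, with counts below 100, were not called.

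*MIPOL1*, the gene that holds the inserted *ETV1* in LNCaP, was highest in del-56. The libraries held normalized counts of 4854, 4618 and 5177 in del-4 cultures, 6119.8, 6302 and 6378 in del-56 cultures, and 5289.9, 4919.5 and 5138 in WT cultures. The del-56 libraries were above all others, and del-4 overlapped with WT. Against WT, del-4 stood at -0.068 on the log2 scale (SE 0.047, adjusted p = 0.275, limma), while del-56 stood at 0.29 (SE 0.043, adjusted p = 4.56e-05, limma).

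*FOXA1*, the pioneer factor of the luminal lineage that lies beside *MIPOL1*, was not called in del-4 (-0.020, adjusted p = 0.759, limma) or del-56 (0.075, adjusted p = 0.258, limma). *TTC6* was higher than in WT by 0.14 on the log2 scale for del-4 and by 0.20 for del-56, and part of its span is shared with *FOXA1*, whose mean was 39858 against 5215 for *TTC6*. Of the 8 genes tested at this site, 1 was called in del-4 and 2 in del-56, all higher. That is 12.5% and 25.0%, beside 40.7% and 39.7% of all genes. In del-4 the call of *TTC6* was lost without del-4 replicate 2 (adjusted p = 0.17), WT replicate 1 (0.108), WT replicate 2 (0.0562) and WT replicate 3 (0.0651), which left none of the 8 genes called. *SLC25A21* and *PAX9* were not called, and *NKX2-8*, *SSTR1* and *CLEC14A* had at most 15.5 normalized counts in any library.

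Lists of genes that regulate, accompany or follow ETS factors were read in the same way, and a gene is described as higher or lower where limma gave an adjusted p under 0.05. The shares over all genes were not matched to the levels of a list and include genes with few counts. In del-4 against WT, 3565 higher and 3517 lower were called of 17401 genes. With a mean of at least 10, they were 3595 and 3532 of 15321. The genes that control the PEA3 factors were expressed and changed by less than a log2 fold change of 1. Of 18 listed genes, 7 were higher and 6 lower in del-4, and 7 were higher and 5 lower in del-56 (limma, adjusted p under 0.05). These are 72.2% and 66.7% of the list, where 40.7% and 39.7% of all genes were called, and the median of their log2 fold changes was 0.046 for del-4 and 0.055 for del-56. Without WT replicate 3, 8 of the 18 were called in del-4. *KDM4A*, a histone demethylase described as a partner of *ETV1*, had normalized counts of 9907, 9856 and 9915 in del-4 cultures, 10112, 10595 and 10442 in del-56 cultures, and 6664, 6863 and 6995 in WT cultures. All deletion libraries were above WT, with del-4 higher by 0.53 and del-56 by 0.60 on the log2 scale. The span of *KDM4A* shares 55370 bases with the gene ENSG00000284989 on the same strand, which had a mean of 10736 against 9039 for *KDM4A*.

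*RPS6KA1* and *RPS6KA3*, kinases that phosphorylate *ETV1* downstream of ERK, were also higher, *RPS6KA1* by 0.29 for del-4 and 0.32 for del-56, and *RPS6KA3* by 0.37 for del-4 and 0.28 for del-56 on the log2 scale. *RBX1*, the RING subunit shared by cullin ubiquitin ligases, was lower, at -0.24 in del-4 and -0.37 in del-56. Beyond the rule for naming genes, and with their values known, *CIC* and *COP1* are given for their role. *CIC*, the repressor of PEA3 genes, was at 0.036 for del-4 (adjusted p = 0.616, limma) and at 0.11 for del-56 (adjusted p = 0.164, limma). *COP1*, the substrate receptor for PEA3 proteins, was lower in del-4 (-0.17, adjusted p = 0.00373, limma) and was at -0.075 in del-56 (adjusted p = 0.207, limma).

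Genes that respond to MAPK signaling and to *CIC* did not move in one direction. In del-4, 6 were higher and 6 lower of 18 tested, and in del-56, 1 was higher and 6 lower of 17 tested. The share called was 66.7% and 41.2%, with 40.7% and 39.7% over all genes, and the median of their log2 fold changes was -0.35 for del-4 and -0.19 for del-56. *SPRY1*, an inhibitor of receptor tyrosine kinase signaling, had normalized counts of 8246, 7436 and 8001 in del-4 cultures, 3932, 3677 and 3646 in del-56 cultures, and 1914, 1954.5 and 2259 in WT cultures. The 3 clones did not overlap, and del-4 stood at a log2 fold change of 1.95 (SE 0.059, adjusted p = 2.89e-14, limma) against WT and del-56 at 0.88 (SE 0.063, adjusted p = 2.38e-08, limma).

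*SPRY4*, of the same family, went the other way from few counts, at -1.28 in del-4 and -1.14 in del-56. *DUSP5* and *DUSP4*, nuclear phosphatases of ERK, were lower as well, *DUSP5* at -0.80 and -1.27 and *DUSP4* at -0.42 and -0.29, del-4 given first. The call of *SPRY4* in del-56 was lost without WT replicate 2 (-0.90, adjusted p = 0.075). *SHC4*, named here after its values were seen, was among the genes called higher in del-4, and the span of *SHC4* contains *EID1*, whose counts were 99.6% of those of *SHC4*.

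Among immediate early genes, 2 were higher and 3 lower of 14 tested in del-4, and 2 were higher and 4 lower of 13 tested in del-56, at medians of 0.035 and -0.19. That is 35.7% and 46.2% of those tested, with 40.7% and 39.7% over all genes. *ATF3*, a stress-induced factor, was at -0.42 in del-4 and -0.73 in del-56, and *IER2* was at -0.18 and -0.23. *MCL1*, which protects from apoptosis, was higher, at 0.35 and 0.40. Of 15 genes whose proteins bind DNA together with ETS factors, 1 was higher and 3 lower in del-4, and 1 was higher and 4 lower in del-56, at medians of -0.020 and -0.077, or 26.7% and 33.3% of the list, again beside 40.7% and 39.7%. In del-56, 3 of the 15 were called without WT replicate 2, del-56 replicate 2 or del-56 replicate 3, and 8 without del-56 replicate 1. *RUNX1*, the partner of *ETS1* on lymphoid enhancers, had normalized counts of 111, 73.7 and 86.4 in del-4 cultures, 66.8, 68.3 and 70.3 in del-56 cultures, and 137, 183 and 167 in WT cultures. Del-4 minus WT came to -0.85 (SE 0.22, adjusted p = 0.00457, limma) on the log2 scale, and del-56 minus WT to -1.22 (SE 0.21, adjusted p = 0.000274, limma). *FOS*, *JUN*, *JUNB*, *SRF* and *FOXA1* were each in more than 1 of the lists.

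Of 24 genes described as targets of ETS factors in prostate cancer, 23 were tested in each comparison. In del-4, 2 were higher and 6 lower, and in del-56, 4 were higher and 6 lower. So 34.8% and 43.5% were called, against 40.7% and 39.7% of all genes, and the median of their log2 fold changes was -0.18 for del-4 and 0.054 for del-56. *MMP7*, the protease matrilysin, had normalized counts of 7.68, 19.9 and 18.1 in del-4 cultures, 22.9, 30.1 and 24.3 in del-56 cultures, and 85.0, 79.1 and 104 in WT cultures. No library of a deletion clone reached those of WT, and the log2 fold change for del-4 was -2.57 (SE 0.38, adjusted p = 2.94e-05, limma) against -1.75 for del-56 (SE 0.30, adjusted p = 0.000201, limma).

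*FZD4*, a Wnt receptor induced by *ERG*, was higher, by 0.82 for del-4 and 1.04 for del-56 on the log2 scale. The span of *FZD4* lies within that of *PRSS23*, which had a mean normalized count of 1801 against 1376 for *FZD4*. *HPGD*, which breaks down prostaglandins, was lower, at -0.65 and -0.50. *TWIST1*, a factor of epithelial to mesenchymal transition, was at -0.35 in del-4 and -1.47 in del-56, with counts of 892 to 1028 in del-4, 422 to 475 in del-56 and 1167 to 1349.9 in WT.

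The genes that serve as 5′ partners in ETS fusions are mostly androgen-regulated, and 10 of them were tested. In del-4, 1 was higher and 5 lower, and in del-56, 2 were higher and 2 lower. Called were thus 60.0% and 40.0%, against 40.7% and 39.7% of all genes, and the median of their log2 fold changes was -0.11 for del-4 and -0.014 for del-56. *TMPRSS2*, a serine protease and the usual partner of *ERG*, had normalized counts of 7848, 8800.5 and 7786 in del-4 cultures, 13005, 13641 and 13263 in del-56 cultures, and 11457, 13062 and 11852 in WT cultures. Its span shares 5772 bases with *MX1* on the opposite strand, which had a mean of 6269 against 11191 for *TMPRSS2*. How many counts they share was not tested. For *TMPRSS2*, the del-4 libraries were below all others, and del-56 overlapped with WT. On the log2 scale, del-4 was at -0.57 against WT (SE 0.051, adjusted p = 7.16e-08, limma), with del-56 at 0.14 (SE 0.046, adjusted p = 0.0268, limma), and the del-56 call was lost in 7 of 16 alternatives, among them those without WT replicate 1 (0.126), WT replicate 3 (0.111), del-56 replicate 2 (0.102) and del-56 replicate 3 (0.0751). *KLK2*, a prostate kallikrein, was lower, at -0.71 and -0.53, and *HERPUD1* was at -0.40 and -0.57. *NDRG1* was higher, at 0.22 in del-4 and 0.72 in del-56.

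Epithelial genes, whose expression *EHF* and *ELF3* are known to keep up, changed in both directions. The list also holds the mesenchymal factors *ZEB1* and *SNAI2*, so its counts and medians mix unlike genes. Of 18, 3 were higher and 9 lower in del-4, and 5 were higher and 6 lower in del-56. This makes 66.7% and 61.1% called, against 40.7% and 39.7% of all genes, and the median of their log2 fold changes was -0.11 for del-4 and -0.056 for del-56. In del-56, *SNAI2* was among the higher genes and *ZEB1* among the lower, and neither was called in del-4. *CDH1*, the gene of E-cadherin, was lower, at -0.28 for del-4 and -0.29 for del-56. *KRT19*, a simple epithelial keratin, was higher, at 0.77 for del-4 and 1.83 for del-56, and *OVOL1*, an epithelial repressor of mesenchymal genes, at 0.62 and 0.46.

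**Figure D5:**
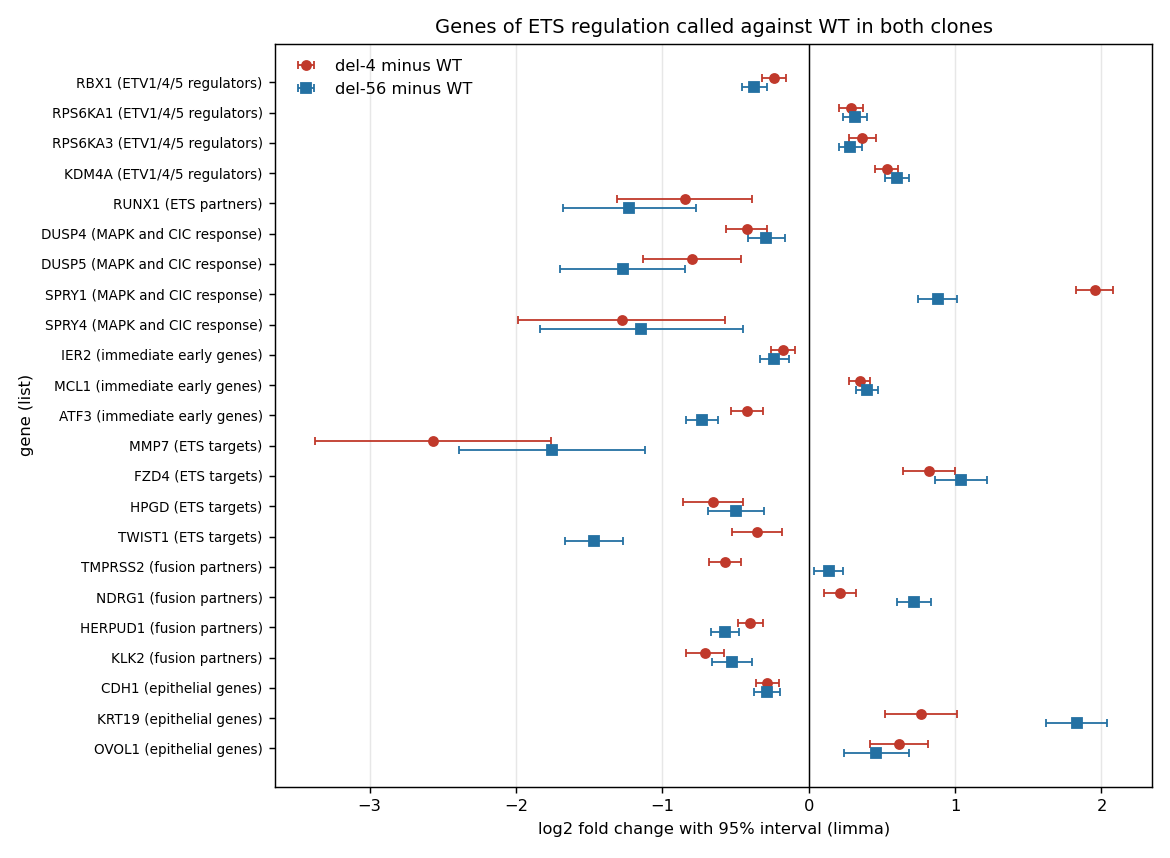
Log2 fold change against WT (x axis, 95% intervals from limma) in del-4 (circles) and del-56 (squares) for genes of ETS regulation called in both clones, at most 4 per list. *MMP7* fell in both clones, *SPRY1* and *KRT19* rose in both, and *TMPRSS2* was lower than WT for del-4 and higher for del-56.

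The genes whose pattern was most like that of *ETV1* were taken by Pearson's r of log2 values over the 9 libraries, over the 13085 genes whose mean reached 100. They were *SNAPC3* (r = 0.985), *ZNF582* (0.981), *TRPV3* (0.981), *ALOX15* (0.981) and *ZNF253* (0.980). The points share 3 clones, so that r mostly reads the order of the clone means. *TRPV3* averaged 722 normalized counts for del-4, 60.4 for del-56 and 28.1 for WT, a far larger change than that of *ETV1*. *SNAPC3* had means of 7806, 7036 and 6917, close to *ETV1* in size. The spans of *SNAPC3* and *TRPV3* are shared in part with *PSIP1* and *SPATA22*.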

How the data were processed

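RNA was measured in 9 libraries of LNCaP clones, 3 cultures each of del-4, del-56 and WT, by strand-specific polyA sequencing. Per the labels and the study's methods, the authors checked reads with FastQC 0.11.8, trimmed them with Trim Galore 0.6.5, aligned them to GRCh38 with STAR 2.71a and counted them with the multicov command of BEDTools 2.27.1 (GENCODE version 38, protein-coding genes). Whether the counting used strand is not given in the sources used here. The deposited values have the unit of a signal, namely counts that the authors divided by 1 DESeq2 size factor per library. In 6 libraries, 100% of the values were whole multiples of 1 step, within a tolerance of 0.001, and the reads could be recovered. In 3 libraries this step was near 1, at 0.996 in del-4 replicate 2 and 1.004 in del-4 replicate 3 and del-56 replicate 2. The check used here takes such a step for rounding, and whole reads were not claimed there. The sums of normalized counts ranged from 106316726 to 114166805 per library, and such depth leaves counting error large only for the members with few counts. Identifiers without version were matched to GENCODE version 44, 19905 of 19984, and 79 had no match and no length.

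Groups were taken from the sample titles. Each pair of clones was compared with limma 3.58.1 (R 4.3.3, variance trend) on log2 of the normalized count plus 1, over genes with a mean of at least 1 in the 6 libraries, with Benjamini-Hochberg adjustment over all genes, and a fold change is on this scale. A gene was called at an adjusted p under 0.05. Alternatives were pseudocounts of 0.5 and 5, no filter, a mean of at least 10, the same total per library, quantile normalization, 1 fit of 9 libraries, the replicate number as a block, leaving out each library, and edgeR 4.0.16 and DESeq2 1.42.0 on 5 libraries, the last pair added after the data were seen. The steps were tested on simulated data. The study's methods call the cultures biological replicates, and p-values measure the spread between cultures of 1 clone each. Members and gene lists were chosen with earlier results of these data known. Named genes were the members, the 3 other ETS genes with the highest counts per kb and any called past a log2 fold change of 1 against WT, up to 4 genes per list called in both clones with a mean of at least 10 and the largest mean change, all tested genes next to *ETV1* or its insertion site, and the 5 genes most like *ETV1*. Some genes that this rule names are not reported here. Sequences are from RefSeq. Tables were made with Python 3.11.15.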

Additional observations from a re-analysis of the deposited data

Results flagged for a closer look

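The clones differed from each other by the direct test (limma, adjusted p under 0.05) for 17 of 52 genes named above. The differences of these 17 from WT were therefore unequal. The 52 are the members, *SPDEF*, *GABPA*, *ERF*, *ELF5*, *ELF1* and genes named from the lists by the rule. Over all genes, 19.9% were called in this test. The 17 cannot be set against that share. *ELF5* and *ELF1* were added because they differed between the clones, and many list genes were named for calls against WT. Among the ETS factors, the called genes were *ETV1*, at a log2 difference of 0.12 for del-4 minus del-56, *EHF* at -0.13, *ERF* at 0.13, *ELF1* at 0.22 and *ELF5* at -1.27. Of the related genes, *SPRY1* (1.07), *TWIST1* (1.12) and *THSD7A* (1.27) were higher in del-4 by more than 1, and *KRT19* (-1.06) was higher in del-56 by more than 1. *TMPRSS2* was at -0.71, *SCIN* at -0.69, *NDRG1* at -0.50, *MIPOL1* at -0.36, *KLK2* at -0.18, *ATF3* at 0.31, *HERPUD1* at 0.17 and *RBX1* at 0.13. The direct call of *ERF* was lost whichever library was left out, and also with the same total per library and with quantile normalization. Those of *ETV1*, *EHF*, *ELF1*, *RBX1*, *KLK2*, *HERPUD1* and *SCIN* were each lost without at least 1 of the libraries. Groups of 3 cultures were too small for the test of single outlying libraries.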

How the results depend on the processing

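*ETV1* and *EHF* in del-4 and *ELF3* and *ETS1* in del-56 kept their calls against WT in all alternatives run, with a log2 fold change of 0.090 to 0.17 for *ETV1*, -0.27 to -0.17 for *EHF*, 0.20 to 0.26 for *ELF3* and -1.51 to -0.88 for *ETS1*. The direct difference of *ETV1* between the clones was 0.080 with the same total per library and 0.090 with quantile normalization, both without a call, and 0.11 to 0.14 with 1 library left out. The members called in del-4 against WT numbered 3 with the same total per library and 2 to 5 with 1 library left out. Between the clones they numbered 1 with the same total and 1 with quantile normalization, and 0 to 2 with 1 library left out, and the other ETS genes called numbered 1 to 2 then. Values that changed sign were not called on either side. With 1 library left out, the log2 fold change in del-4 ranged from -0.071 to 0.014 for *FOXA1*, from -0.052 to 0.033 for *SLC25A21*, from -0.20 to 0.039 for *PAX9*, from -0.038 to 0.034 for *DGKB* and from -1.01 to 0.17 for *AGMO*. In del-56 it ranged from -0.037 to 0.11 for *ETS2*, from -0.089 to 0.046 for *PAX9* and from -0.010 to 0.17 for *SCIN*, and between the clones from -0.53 to 0.047 for *ETV5*. With quantile normalization *SLC25A21* in del-4 was 0.0012 and *PAX9* in del-56 was 0.017, and with the same total *DGKB* in del-4 was -0.063 and *ELK1* between the clones -0.0047. With edgeR and DESeq2 on 5 libraries, *ETS2* in del-56 was -0.039 and -0.039 and *PAX9* 0.019 and 0.018. Whether the replicate numbers pair the libraries was not settled. In the pairing check, deviations of same-numbered libraries from their group means correlated between -0.053 and 0.063 in 9 pairs. In 6 of the 9 pairs the best match was the same number, all in comparisons that include del-4. Correlations this weak cannot decide whether libraries of the same number shared a batch. With the replicate number as a block, the log2 fold change of *ETV1* in del-4 stayed at 0.16 (adjusted p = 0.00158, limma), 6 members were called in del-4, 2 in del-56 and 3 between the clones, where *ETS2* was added. The planned edgeR and DESeq2 tests on all libraries were not run, since whole reads were claimed in 6 of 9 libraries. The values of *FLI1*, near the filter, are limited by counting error, and those of *ERG* rest on few counts.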
